A study of Mus musculus with 3 samples.

Results

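*Lrg1*, *Hp*, *Orm1* and *Saa3*, which encode 4 secreted proteins of the acute phase response, were followed across the cell types of the mouse meninges, across neutrophil stages and between stressed and unstressed mice. They are 4 of the 27998 genes in the count matrix. They were taken by symbol, and had been picked because earlier results of these data showed their pattern over cell types and their difference between groups in neutrophils. Their levels and their differences in neutrophil-like cells are therefore given as a description, with no test.

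The acute phase response is the change in plasma proteins that follows infection, injury or other inflammatory signals. Interleukin-6, acting through STAT3, and interleukin-1, acting through NF-kB and C/EBP factors, raise these proteins in the liver, their main source. Neutrophils also make some of them while they mature in the bone marrow and store them in specific granules, for release in tissue. *Lrg1* encodes leucine-rich alpha-2-glycoprotein, which modifies TGF-beta signalling in endothelium. *Hp* encodes haptoglobin, which binds haemoglobin released from red cells. *Orm1* encodes orosomucoid, a carrier of lipids and drugs. *Saa3* encodes a serum amyloid A that is made mostly outside the liver, by macrophages and adipocytes among others.

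The cells came from the meninges of male C57BL/6J mice aged 10 to 12 weeks. The home cage (HC) group was 8 unstressed mice in 2 pools of 4, HC replicate 1 and HC replicate 2. The chronic social defeat (CSD) group was 1 pool of 4 mice, CSD replicate 1, which had met an aggressor over 14 days and were classed as susceptible to stress. A further CSD pool was lost at encapsulation, according to the methods. Live nucleated singlets were sorted and loaded in separate lanes of 1 Chromium chip, so the CSD condition, its pool and its lane cannot be told apart. Where 3 values stand together, they belong to the first HC pool, the second HC pool and the CSD pool. The HC pools gave the spread in every test, and the lone CSD pool was assumed to vary as they did.

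The libraries held 8814690 to 10206236 UMIs, that is, distinct RNA molecules counted. Of 2211840 barcodes, 7057 had at least 500 UMIs, a number of genes within the study's limits and under 8.3% mitochondrial UMIs, and 6841 remained once likely doublets were taken out. Cell barcodes found in more than 1 library numbered 16. Clusters were named from canonical genes, and 14 cell types had at least 20 cells in each library. Neutrophil-like cells made up 27.7% of cells in the first HC pool, 30.1% in the second and 43.0% in the CSD pool, and their leading genes included *Retnlg*, *Cxcr2*, *Csf3r* and *Ly6g*. Barcodes with at most 100 UMIs, which hold mainly RNA free in the suspension, carried 7.87%, 24.1% and 5.48% of all UMIs. The mix of free RNA differed between libraries. In NK-like cells, which should lack them all, mature B cell markers summed to 2036, 2118 and 783 CPM (UMIs per 1000000 UMIs of the cells), fibroblast markers to 378, 490 and 50.3, and erythroid markers to 1972, 3521 and 5259.

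Each gene lies alone at its locus in the GENCODE annotation of GRCm38, with no overlapping gene. *Lrg1* (ENSMUSG00000037095) is at chr17:56119678-56122001 on the minus strand, *Hp* (ENSMUSG00000031722) at chr8:109575128-109579172 on the minus strand, *Orm1* (ENSMUSG00000039196) at chr4:63344560-63348163 on the plus strand and *Saa3* (ENSMUSG00000040026) at chr7:46711998-46715700 on the minus strand. The *Orm1* transcript shares 91.0% of its bases with *Orm2* and 87.5% with *Orm3*, so its counts are uncertain where reads could have been given to either copy. *Orm2* and *Orm3* themselves were at or near 0 in neutrophil-like cells (0 to 0.763 CPM). The promoters of *Lrg1* and *Saa3*, the 2 members matched in the promoter table used here, are shown for comparison of their motifs. The sequences are from RefSeq (GRCm38.p6, 5′ to 3′ on the gene's own strand) and end at the base before the start that GENCODE gives, at chr17:56122002-56122196 for *Lrg1* and chr7:46715701-46715926 for *Saa3*. Capitals mark the match to a C/EBP motif.
Lrg1: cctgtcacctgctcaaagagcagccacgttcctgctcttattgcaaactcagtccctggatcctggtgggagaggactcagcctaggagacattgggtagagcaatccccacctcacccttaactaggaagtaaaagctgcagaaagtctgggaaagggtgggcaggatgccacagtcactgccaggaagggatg
Saa3: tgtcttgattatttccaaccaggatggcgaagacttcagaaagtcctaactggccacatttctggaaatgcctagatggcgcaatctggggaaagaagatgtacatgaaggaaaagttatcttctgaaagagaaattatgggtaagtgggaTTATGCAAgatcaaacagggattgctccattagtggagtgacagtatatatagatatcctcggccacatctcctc
The 3 motifs of acute phase regulators were searched on both strands in the 250 bases before the RefSeq start. TTGCNNAA (C/EBP) matched at positions -99 to -92 of *Saa3* and not in *Lrg1*, and 9.56% of 32851 promoters held it. The NF-kB motif, GGG and TTCC with 3 free bases between them, matched at -34 to -25 of *Lrg1*, downstream of the run printed, and not in *Saa3*, and 4.65% of promoters held it. TTCNNNGAA (STAT) matched in neither, and 7.02% of promoters held it. These are matches of letters, not measured sites.

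*Lrg1* was concentrated in neutrophils and their precursors. Neutrophil-like cells, 34.1% of cells, held 54.0% of its 7574 UMIs, and preneutrophil-like cells, 6.50% of cells, held 27.1%. In neutrophil-like cells its level was 356, 471 and 1147 CPM (658 ± 428, SD, n = 3 libraries). Preneutrophil-like cells, the proliferating precursors marked by *Fcnb*, *Camp* and *Ngp*, had 459, 569 and 879 CPM (636 ± 218). The CSD library was the highest in both, and the levels of these cell types overlapped. Preneutrophil-like cells of the second HC pool were shallow, with a median of 1521 UMIs against 6805 in the first and 6784 in CSD. All 12 other types lay between 16.7 and 239 CPM over the libraries, with means of 73.3 in immature B-like cells to 121 in fibroblast-like cells, below every neutrophil-like and preneutrophil-like value. The ranges of these 12 all overlapped each other.

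The level in the other types was near that of cells that should lack the gene. Pooled NK-, T-, ILC2- and B-like cells had 39.6, 77.4 and 154 CPM of *Lrg1*. Empty droplets had 146, 214 and 515 CPM. Relative to the pooled lymphoid cells of the same library, *Lrg1* was 8.98, 6.09 and 7.44 times as high in neutrophil-like cells and 1.31, 1.24 and 1.35 times as high in monocyte-like cells. Endothelial-like cells, of which there were 11, 18 and 3, are named here after their values were seen: they held 2, 5 and 14 *Lrg1* UMIs, too few cells for a level.

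*Hp* reached further along the myeloid lineage. Its level in neutrophil-like cells was 1519, 1838 and 3180 CPM (2179 ± 882, n = 3). Preneutrophil-like cells had 1575, 1653 and 2563 CPM. Monocyte-like cells, led by *Fn1*, *F13a1* and *Ms4a4c*, had 908, 1182 and 1805 CPM (1298 ± 460). Each of these 3 types overlapped its neighbour in the order. Myeloid progenitor-like cells, a mixed set with *Prtn3* and *Ctsg* among its leading genes but monocyte markers scoring highest in its main cluster, came next with a mean of 906 ± 295 CPM and overlapped monocyte-like cells alone. The other 10 types had means of 280 to 344 CPM and a range of 157 to 519, below all progenitor values. Against the pooled lymphoid cells of the same library (187, 310 and 441 CPM), *Hp* was 8.12, 5.94 and 7.21 times as high in neutrophil-like cells, 4.86, 3.82 and 4.09 times in monocyte-like cells and 3.34, 2.85 and 2.75 times in progenitors.

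*Orm1* belonged to the precursor stage. Preneutrophil-like cells held 58.2% of its 1245 UMIs and neutrophil-like cells 25.7%. Its level was 178, 281 and 277 CPM in preneutrophil-like cells (245 ± 58.5, n = 3) and 51.3, 63.6 and 64.4 CPM in neutrophil-like cells (59.8 ± 7.35). These ranges did not overlap. No other type had a mean above 20.1 CPM, and the pooled lymphoid cells had 9.47, 16.1 and 18.0 CPM.

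*Saa3* was a gene of few molecules. Of its 40 UMIs in cells, 26 lay in monocyte-like cells of the CSD library, and 6 in preneutrophil-like cells (2, 3 and 1). Neutrophil-like cells held 0, 0 and 2 UMIs, and the pooled lymphoid cells none. Its level in empty droplets was 0, 1.88 and 1.79 CPM (0, 4 and 1 UMIs).

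**Figure D1:**
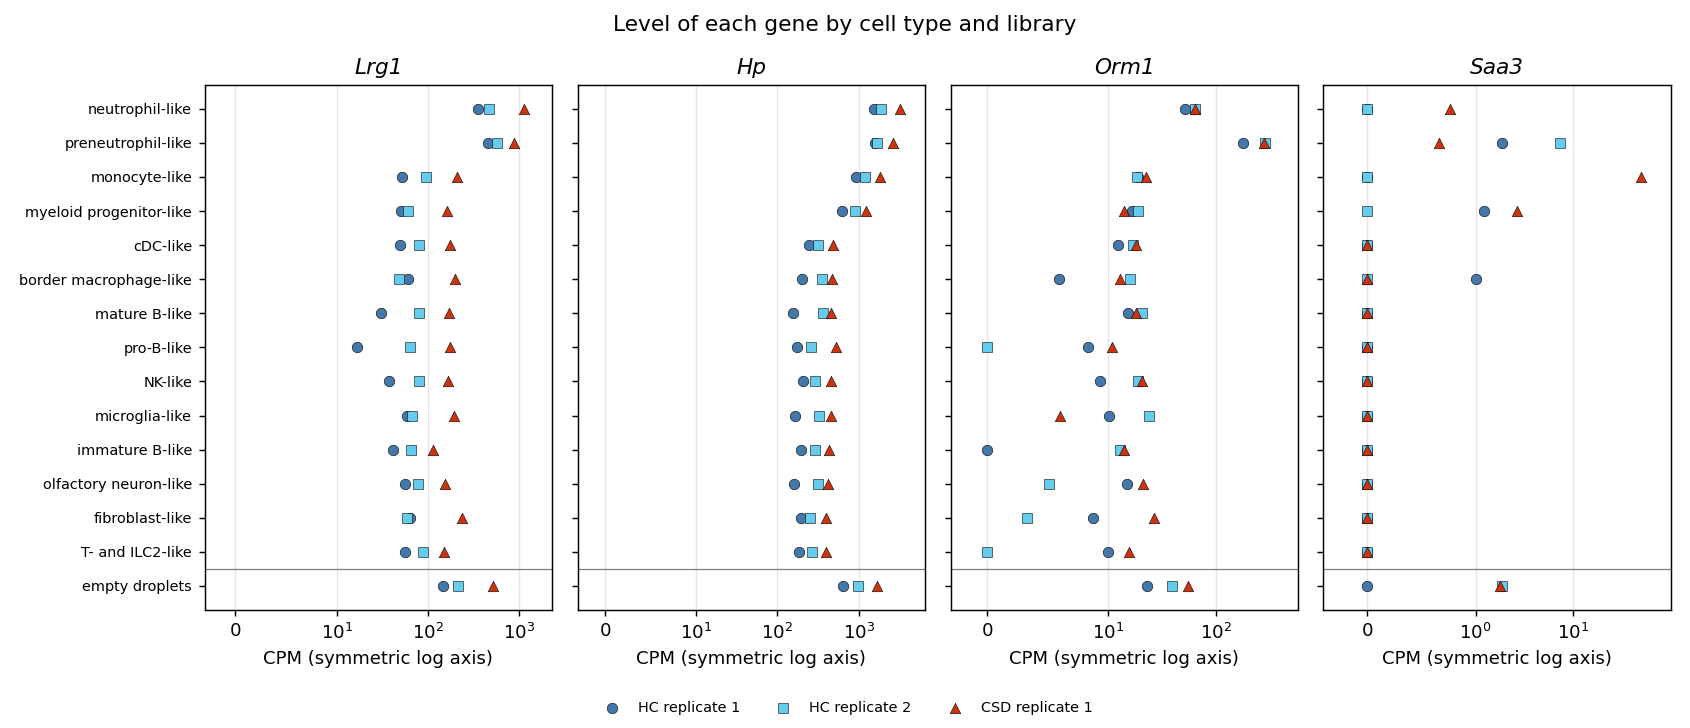
Level of each gene in CPM (symmetric log axis) for 14 cell types with at least 20 cells in each library and, below the line, empty droplets, with 1 point per library. *Lrg1* stands apart in neutrophil-like and preneutrophil-like cells, *Hp* also in monocyte-like cells (908 to 1805 CPM) and progenitors, *Orm1* in preneutrophil-like cells (178 to 281 CPM), and *Saa3* in monocyte-like cells of the CSD library alone (49.3 CPM).

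The genes with the most similar pattern over the 14 cell types were found by Pearson's r of log2(CPM + 10). *Lrg1* was nearest to *Chil1* (0.99), *S100a8*, *S100a9*, *Wfdc21* and *Ltf* (0.98). For *Orm1* they were *Cebpe* (0.97), *Camp*, *4930438A08Rik*, *Ngp* and *Ltf* (0.94), *Cebpe* being the factor of granulocyte maturation and *Camp*, *Ngp* and *Ltf* specific granule genes. *Hp* lay nearest to *Prdx5* (0.98), *Gsr*, *Trem3*, *Ifitm6* and *Msrb1* (0.95), of which *Prdx5*, *Gsr* and *Msrb1* act against oxidation. *Saa3* lay nearest to *Ms4a8a* (0.85), *Serpinb10*, *Rbks*, *Vcan* and *F10* (0.78), an order that rests mainly on its 26 UMIs in monocyte-like cells. Between members, r was 0.90 for *Lrg1* with *Orm1*, 0.82 for *Lrg1* with *Hp* and 0.79 for *Hp* with *Orm1*. The types share libraries and free RNA, and these values are descriptions over 14 points.

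Along neutrophil maturation the 3 granule proteins followed different courses. Stages were given to whole clusters by their best-scoring marker list, with 754 immature and 1581 mature neutrophil-like cells. The mature cluster called high-*Il1b* scored best for *Il1b* together with other genes such as *Ccl3* and *Ptgs2*. The mature cluster called low-*Il1b* scored best for general mature markers. Median depth was 1724 UMIs in low-*Il1b* and 950 in high-*Il1b* cells. In the HC libraries *Lrg1* had 459 and 569 CPM in preneutrophil-like, 492 and 594 in immature, 202 and 324 in mature low-*Il1b* and 240 and 282 in mature high-*Il1b* cells, so both mature stages lay below both earlier ones. In the CSD library it had 879, 1223, 1011 and 1227 CPM in the same order, with no such fall. *Hp* in the HC libraries had 1375 and 1631 CPM in immature and 1670 and 2107 in all mature cells, and in the CSD library 2970 and 3429. *Orm1* dropped at each step, from 178 to 281 CPM in preneutrophil-like cells to 79.4 to 102 in immature and 19.97 to 21.6 in mature cells over the 3 libraries, with no overlap between stages. The mature level of *Orm1* was close to that of the pooled lymphoid cells.

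**Figure D2:**
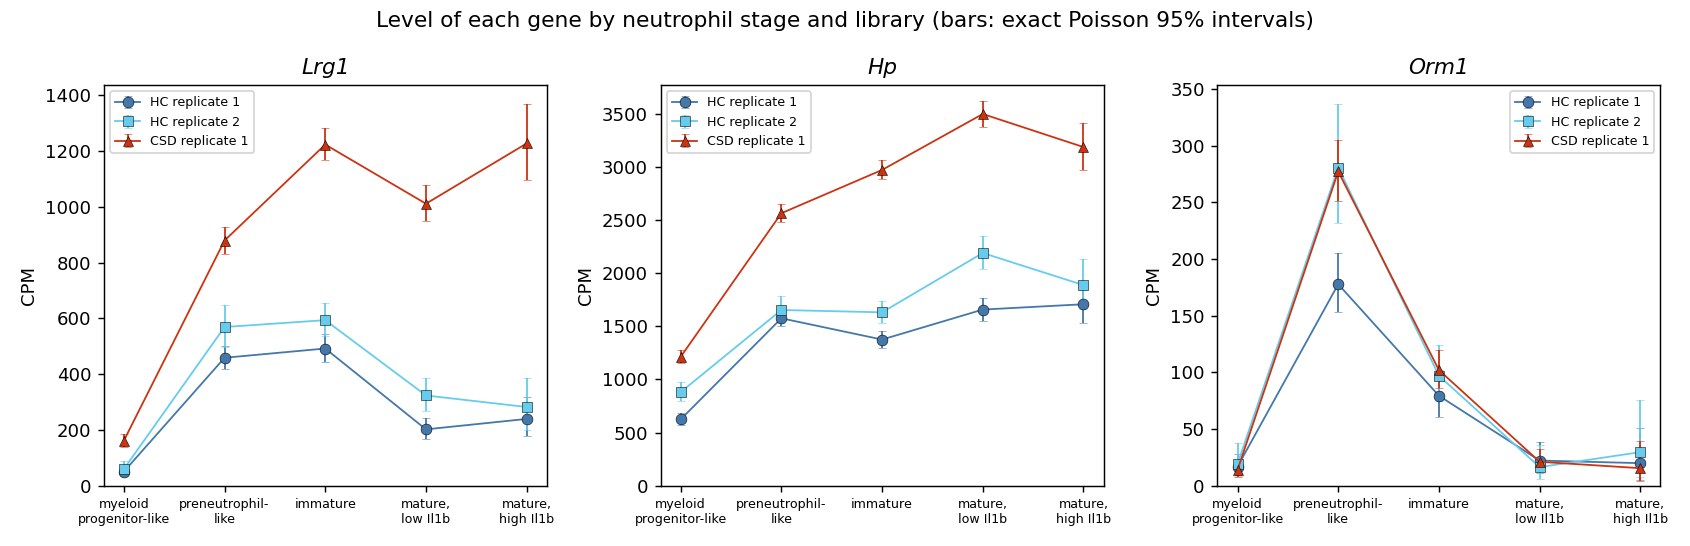
Level of *Lrg1*, *Hp* and *Orm1* in CPM by stage, from myeloid progenitor-like cells to mature neutrophil-like cells with high *Il1b*, with 1 line per library and bars for exact Poisson 95% intervals, which cover counting error only. The *Lrg1* lines of HC fall from immature to mature cells (543 to 262 CPM on average) while the CSD line stays at 1011 to 1227 CPM, and the *Orm1* lines fall together.

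*Lrg1* and *Hp* were higher in neutrophil-like cells of the CSD library than in either HC library, and *Orm1* was not clearly so. For *Lrg1* the CSD level was 2.77 times the HC mean (414 ± 81.6 CPM, n = 2), with a fitted log2 difference of 1.55 (SE 0.18, edgeR). For *Hp* it was 1.90 times the HC mean (1678 ± 226 CPM), with a fitted log2 difference of 0.99 (SE 0.15). Of all 7361 genes with at least 20 UMIs there, 17.5% were above both HC libraries, and nothing is read from the members, which were chosen on this contrast. *Orm1* was 1.12 times the HC mean, its CSD level of 64.4 CPM lying within counting error of the 63.6 in the second HC pool (exact Poisson 95% interval 49.9 to 80.0). It had a UMI in too few cells for the fit, and *Saa3* had 2 UMIs in all.

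The share of cells with a UMI gave the same order. With every cell thinned to 500 UMIs, 13.2% of neutrophil-like cells in the first HC pool (exact 95% interval 10.8 to 15.9), 14.1% in the second (11.2 to 17.4) and 40.5% in the CSD pool (37.65 to 43.5) had a *Lrg1* UMI, and unthinned these were 37.5%, 45.6% and 74.8%. Pooled lymphoid cells gave 1.63%, 4.15% and 7.0% thinned and 7.99%, 15.3% and 25.1% unthinned, at median depths of 1814, 1798 and 1605 UMIs against 1736, 1736 and 1957. For *Hp* the thinned shares were 53.4%, 60.9% and 77.8% in neutrophil-like cells, with 7.99%, 16.4% and 21.5% in lymphoid cells. Over the 14 types the thinned share was highest in CSD in 12 for each gene, the exceptions being T- and ILC2-like and pro-B-like cells for *Lrg1* and microglia-like and pro-B-like cells for *Hp*. These intervals cover counting error only.

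**Figure D3:**
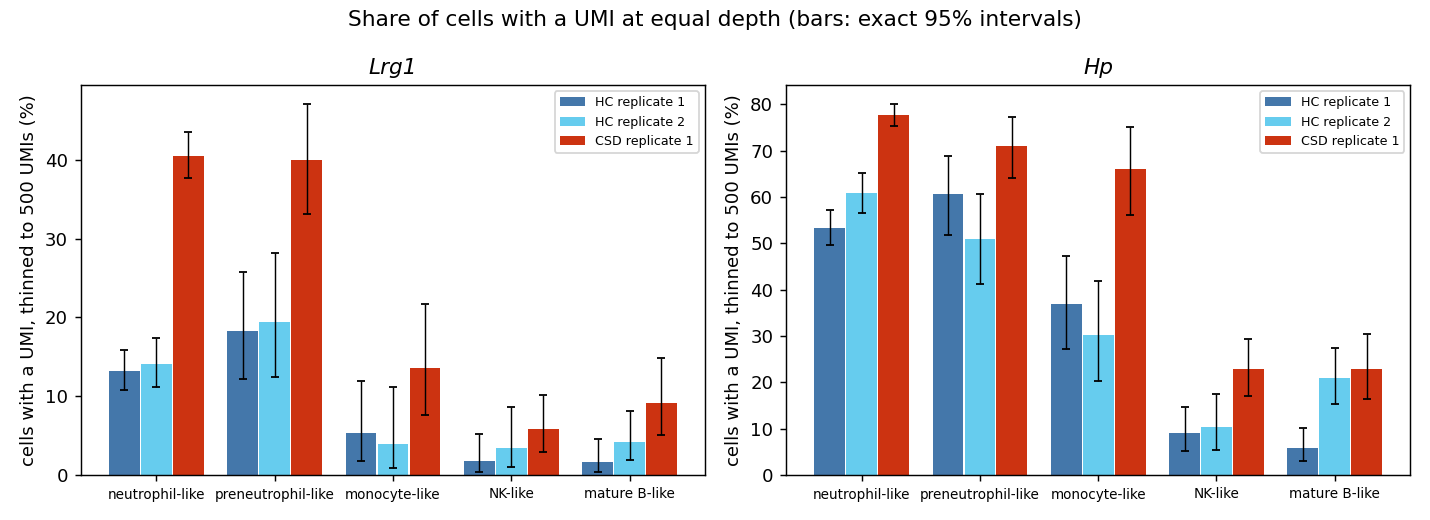
Share of cells (%) with at least 1 UMI of *Lrg1* or *Hp* after each cell was thinned to 500 UMIs, by cell type and library, with exact 95% binomial intervals. The 5 types shown are neutrophil-, preneutrophil-, monocyte-, NK- and mature B-like cells, and the CSD bar is the highest in each, at 40.5% for *Lrg1* in neutrophil-like cells and 5.82% in NK-like cells.

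The same direction appeared in every other cell type and in the empty droplets. *Lrg1* and *Hp* were above both HC libraries in 14 of 14 types, with ratios of CSD to the HC mean of 1.71 to 4.36 for *Lrg1* and 1.59 to 2.40 for *Hp*. Single types had 17.5% to 36.8% of genes above both HC libraries, and 12 of the 1748 genes with at least 20 UMIs in each type (0.686%) were so in all 14. Besides *Lrg1* and *Hp* these were *Chil3*, *Lcn2*, *Ngp*, *S100a6*, *S100a9*, *Ifitm2*, *Ifitm6* and the haemoglobin genes *Hba-a1*, *Hbb-bs* and *Hbb-bt*, named after their values were seen. The ratio in empty droplets was 2.85 for *Lrg1* and 2.07 for *Hp*, and in the pooled lymphoid cells 2.63 and 1.78. With the empty-droplet profile subtracted, the log2 difference in neutrophil-like cells was 1.41 for *Lrg1* and 0.85 for *Hp*. By B cell genes, free RNA was estimated at 28.1%, 28.8% and 21.3% of the UMIs of neutrophil-like cells. The 14 types share libraries and free RNA, and they include the neutrophil-like cells on which the members were chosen. They are therefore not 14 separate results, and nothing is read from the members being in all of them. In types at the lymphoid level, the part of free RNA in the difference was not tested. *Orm1* was above both HC libraries in 9 of 14 types.

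**Figure D4:**
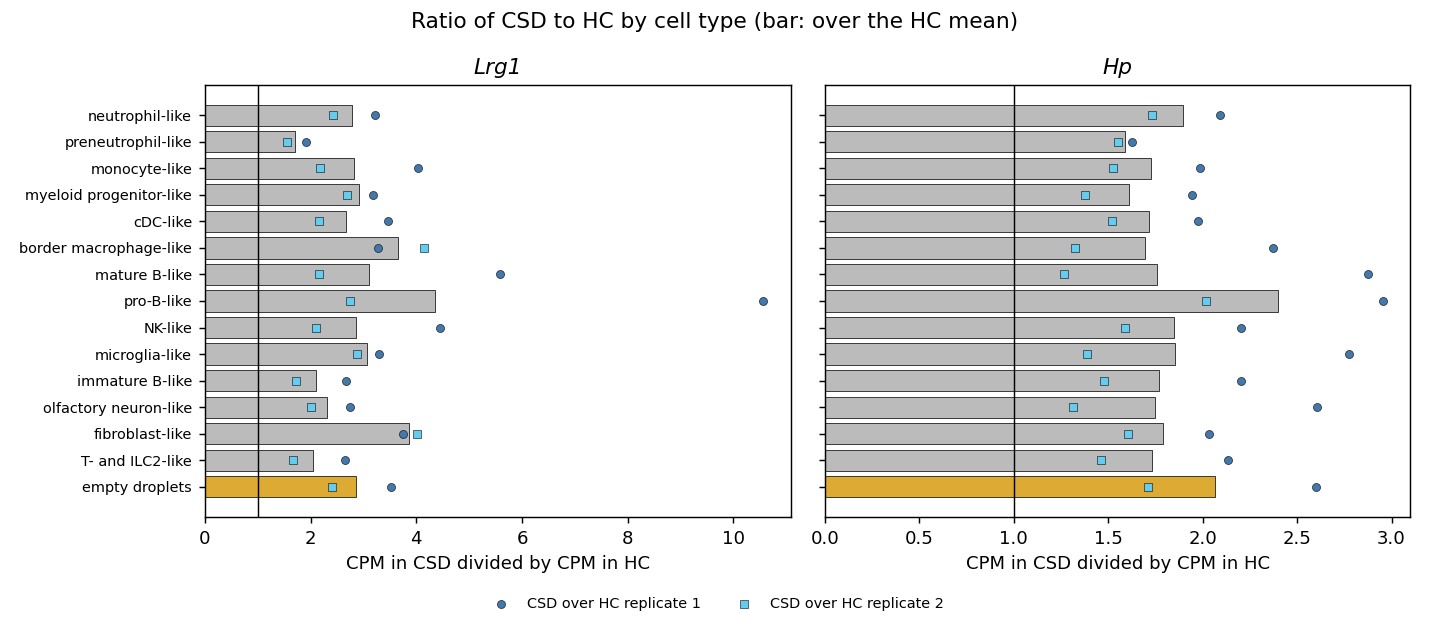
Level in CSD divided by the level in HC for *Lrg1* and *Hp* in 14 cell types and in empty droplets. Bars are over the HC mean, points are over each HC library, and the line marks a ratio of 1. All bars and points lie above 1, with the empty droplets at 2.85 and 2.07.

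The ratio of CSD to HC in *Lrg1* was larger in mature than in immature cells. In CPM, the CSD level was above the HC mean by 680.5 in immature and 795.2 in mature cells, which lie closer together. CSD was 2.25 times the HC mean in immature cells (1223 against 543 ± 71.8 CPM) and 4.03 times in mature cells (1058 against 262 ± 70.8 CPM). It was 3.85 times in low-*Il1b* and 4.70 times in high-*Il1b* cells. The interaction of stage and condition, fitted on 6 sums with library as a block, was 0.90 on the log2 scale (SE 0.12, edgeR). It is given as a description, because the members were chosen on neutrophil values of these libraries. Of the 1115 genes tested for this interaction, 1.88% passed. In each library the stages come from the same suspension and free RNA. The *Lrg1* interaction was 0.85 with DESeq2 (SE 0.27) and 0.82 with cells thinned to 500 UMIs (SE 0.28). It was 0.50 without correction between libraries in clustering (SE 0.19) and 0.97 with the empty-droplet profile subtracted (SE 0.18). For *Hp* the interaction was -0.08 (SE 0.07, edgeR). *Orm1* had a UMI in too few cells for that fit, and with every gene of at least 20 UMIs fitted its interaction was -0.25 (SE 0.45, edgeR).

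Monocyte-like cells were compared in the same way, and no member passed the test among genes with a UMI in more than 15% of cells. *Lrg1* had 51.9, 95.9 and 209 CPM, a log2 difference of 1.51 (SE 0.32, adjusted p = 0.242, edgeR), and *Hp*, at the levels given above, 0.79 (SE 0.19, adjusted p = 0.412, edgeR). The CSD library was above both HC libraries for both genes, as were 31.5% of the 5087 genes with at least 20 UMIs in these cells. At an unadjusted p under 0.05 both genes passed in edgeR (0.0012 and 0.0025), as did 6.23% of all genes tested. Both also passed in DESeq2 (0.013 and 0.027), as did 26 of 2953 genes, and neither passed there after adjustment. In all, 0.102% of the 2953 genes tested passed. With every gene of at least 20 UMIs tested, of which 0.924% passed, *Lrg1* and *Hp* passed in edgeR (adjusted p = 2.75e-05 for *Lrg1* and 0.0077 for *Hp*), and *Orm1* did not (adjusted p = 0.994). Without correction between libraries in clustering the *Lrg1* difference was 0.68 (SE 0.30, adjusted p = 0.763, edgeR). The 10 neutrophil markers summed to 27248, 24229 and 32856 CPM in monocyte-like cells, with 9 of them above both HC libraries, and to 27248, 24915 and 29727 CPM in NK-like cells, and their part in these differences was not tested. *Lrg1* was near the lymphoid level in monocyte-like cells, whereas the *Hp* level was 3.82 to 4.86 times that level. The members were chosen on the same contrast in neutrophil-like cells of these libraries, which share free RNA with the monocyte-like cells. The p-values of members given here are therefore not independent of that choice, and nothing is read from them.

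*Saa3* was found in monocyte-like cells of the CSD library and in none of HC. The CSD cells had 49.3 CPM (exact Poisson 95% interval 32.2 to 72.3) from 26 UMIs, and 0 of 95 and 0 of 76 HC cells had a UMI, which allows shares of up to 3.16% and 3.95%. The CSD level was 13.1 times a floor of 3 counts over both HC libraries together (3.75 CPM). That ratio leaves out the counting error of the CSD level, so it is not a lower limit. The difference of 49.3 CPM became 27.3 at Leiden resolution 2, 28.4 with cells of at least 1000 UMIs and 25.1 with no removal of doublets. The UMIs came from 9 of 103 cells (8.74%, or 2.91% thinned), of which 6 had more than 1 UMI and 1 had 7, or 26.9% of the total. *Saa3* had a UMI in too few cells for the main fit. It reached the limit of 20 UMIs only through the CSD library, so no test of it is given. Empty droplets of the CSD library held 1 *Saa3* UMI in 559343 (1.79 CPM), and its NK-like, T- and ILC2-like and B-like cells held none. The part of free RNA in the monocyte-like level was not tested. Among tissue macrophages, microglia-like cells had 0 UMIs and border macrophage-like cells had 1 UMI in the first HC pool and 0 in both other libraries.

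Acute phase genes were counted in neutrophil-like cells without the members, which were chosen on this contrast. So few genes of any kind passed there that the counts say little about these genes. Of 36 positive acute phase genes, those that rise in the response, 6 passed the filter, and of the 4 that were not members 0 passed the test in edgeR or DESeq2, 1 had an unadjusted p under 0.05 in edgeR, and 2 had a positive difference. Among all genes tested 0.179% passed, 12.4% had an unadjusted p under 0.05 and 49.5% had a positive difference. *Lcn2*, a siderophore-binding granule protein, had 7412, 8631 and 10680 CPM (log2 difference 0.48, SE 0.13, adjusted p = 0.296 by edgeR). *C3* had 92.8, 95.8 and 94.6 CPM, and *Mt1*, a metallothionein, 190, 76.7 and 78.2. The liver genes *Crp*, *Apcs*, *Fga*, *Fgb*, *Fgg* and *Hpx* were at 0 in all neutrophil-like cells. No negative acute phase gene, one that falls in the response, passed the filter: *Trf* had 40.8, 51.4 and 27.8 CPM, *Ttr* 3.95, 115 and 0.381, and *Apoa1*, *Rbp4* and *Alb* were under 1 CPM in each library.

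Of 20 specific granule genes, 13 that were not members were tested, 0 passed in edgeR or DESeq2, 5 had an unadjusted p under 0.05 (*Lcn2*, *Slpi*, *Cfp*, *Chil3* and *Ngp*), and 11 had a positive difference, beside 12.4% and 49.5% of all genes. Of all genes in that edgeR fit, 0.179% passed. The median log2 difference of the 13 genes was 0.22 beside -0.0017 over all genes. *Ngp* had 20810, 24800 and 29260 CPM (log2 difference 0.43, SE 0.13), and *Ltf*, lactoferrin, 3250, 4581 and 4591. *Camp*, the cathelicidin precursor, had 23860, 26740 and 25940 CPM, and *Lyz2*, lysozyme, 15770, 17710 and 17280.

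The signals that induce the acute phase response, and the partners of the 4 proteins, were counted in the same fit, where 0.179% of all genes passed. Most of them had a UMI in too few cells to be tested. *Fkbp5*, on the list of inducers and signal carriers and named after its value was seen, was among these. With no filter on the share of cells its log2 difference was 1.29 (edgeR). Of 38 inducers and their signal carriers, 11 were tested and 0 passed in edgeR or DESeq2, with *Junb* and *Nfkbiz* at an unadjusted p under 0.05 (12.4% over all genes) and a median log2 difference of 0.03. *Il1b* had 591, 569 and 596 CPM, *Osm*, a cytokine of the interleukin-6 family, 214, 285 and 274, *Nfkbia*, the inhibitor and target of NF-kB, 557, 703 and 589, *Junb* 585, 671 and 433, and *Cebpe* 316, 367 and 335. Of 22 ligands and receptors tied to the members, 4 were tested and 0 passed in either tool, 1 of them (*Cycs*, cytochrome c, which leucine-rich alpha-2-glycoprotein binds) having an unadjusted p under 0.05, again beside 12.4% of all genes, with 96.1, 109 and 69.0 CPM. *Fpr2*, a receptor of serum amyloid A, had 265, 260 and 274 CPM, *Tlr2* 54.6, 55.8 and 35.1, and the integrin genes *Itgb2* 209, 203 and 197 and *Itgam* 166, 193 and 154.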

How the data were processed

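The authors deposited raw UMI counts from Cell Ranger 2 (10x Chromium v2, with mm10 named in the submitters' processing notes) for every barcode, with no cells called and no normalization. The digit that closes each barcode was taken as the sample number in the labels. Total depth was 9891861, 8814690 and 10206236 UMIs (first HC pool, second HC pool, CSD pool). The members and the gene lists were chosen with earlier results of these data known.

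Cells had at least 500 UMIs, a gene number within the study's limits and under 8.3% mitochondrial UMIs. Doublets were marked by Scrublet in scanpy 1.11.5 at its automatic threshold, except in the CSD library, where that marked 0.145% and the top 5.1% of scores were removed (50, 25 and 141 cells in all). The members were left out of clustering (3000 variable genes, 50 components, mutual-nearest-neighbour correction, Leiden resolution 1), and clusters were named by their best marker list, or by the list leading their top genes where these differed. CPM is the UMIs of a gene per 1000000 UMIs of the cells summed.

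UMIs were summed per library and tested with edgeR 4.0.16 (glmQLFTest, TMM, two-sided, Benjamini-Hochberg, threshold 0.05) on genes with a UMI in more than 15% of cells, in place of the study's Mann-Whitney test on cells. Each library is a pool, so p-values rest on the spread between the HC pools and on dispersion shared over genes. The CSD pool adds no spread. In the stage interaction, with library as a block, the spread is that of the stage difference between the HC pools. The number of residual degrees of freedom was 1 in each fit. In simulated data with 200 changed genes edgeR recovered 93% of those changed 2-fold in the neutrophil-like fit (1115 genes), 38% in the monocyte-like fit (2953 genes) and 95% in the stage interaction (1115 genes), with 7, 8 and 14 false calls. DESeq2 recovered 67%, 6% and 26%, with 2, 2 and 0 false calls. Every simulated gene had the same dispersion and, unless changed, the same expected share of UMIs in all libraries. Genes with low counts were not changed. Recovery in the real data, where spread differs by gene and free RNA by library, was not measured. Named genes are the members, the 5 genes of each list with the highest mean CPM in neutrophil-like cells plus any past the threshold, and the 5 genes most like each member. Alternatives were DESeq2 1.42.0, its size factors, no filter on the share of cells (at least 20 UMIs), no removal of doublets, at least 1000 UMIs per cell, Leiden resolution 2, no correction, thinning to 500 UMIs, subtraction of the empty-droplet profile, equal weight per stage and leaving out each HC library. Some B cell and T cell genes and *Cebpd* were not analysed here.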

Additional observations from a re-analysis of the deposited data

Results flagged for a closer look

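As a ratio, the difference between CSD and HC in *Lrg1* was larger in mature than in immature neutrophil-like cells, by 0.90 on the log2 scale (edgeR). In CPM it was 680.5 in immature and 795.2 in mature cells. The larger ratio in mature cells was flagged. It was fitted as an interaction of stage and condition and is given with no test, because the members were chosen on neutrophil values. The interaction was 0.85 with DESeq2, 0.82 with cells thinned to 500 UMIs and 0.50 without correction between libraries. In *Orm1*, the CSD library lay above both HC libraries in neutrophil-like cells and below both in myeloid progenitor-like cells, where the log2 ratio of CSD to the HC mean was -0.35 from 14, 8 and 16 UMIs in the first HC, the second HC and the CSD pool, and this difference between the cell types was not tested. No group had enough libraries for a check of samples that stand far from the others.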

How the results depend on the processing

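The CSD side has 1 library, so leaving it out leaves no comparison, and the rest rests on 2 HC libraries. Shallow cells and the small number of monocyte-like cells limit the depth, and *Saa3* and *Orm1* lie near the counting limit. No paired analysis was possible because the HC and CSD groups share fewer than 2 replicate numbers.

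In neutrophil-like cells *Lrg1* and *Hp* stayed higher in CSD under all 12 alternatives, at log2 differences of 1.39 to 1.91 and 0.85 to 1.13. The highest *Lrg1* value, 1.91 with thinning, moved by more than the spread between HC libraries. *Orm1* changed sign, to -0.13 with cells of at least 1000 UMIs, -0.10 with no removal of doublets and -0.17 with thinning. It was also below 0, by less, at Leiden resolution 2 (-0.075) and with the empty-droplet profile subtracted (-0.012). In monocyte-like cells *Lrg1* passed the test at Leiden resolution 2 (1.22, adjusted p = 0.0431 by edgeR), with the empty-droplet profile subtracted (1.99, adjusted p = 0.00771 by edgeR), with no removal of doublets (1.32, adjusted p = 0.0318 by edgeR) and with no filter on the share of cells (1.54). It was lowest, at 0.68 (adjusted p = 0.763 by edgeR), without the correction between libraries. *Hp* passed with thinning (1.10, adjusted p = 0.0463 by edgeR) and with no filter (0.82). *Orm1* there moved to -1.29 without the correction between libraries, -0.17 with no removal of doublets and 1.30 with thinning. The *Saa3* difference of 49.3 CPM in monocyte-like cells moved to 27.3 at Leiden resolution 2, 28.4 with at least 1000 UMIs and 25.1 with no removal of doublets. These settings also redrew the cell sets, with 274 monocyte-like cells in the main setting and 413, 352 and 374 in the same order. Without the correction between libraries there were 363 monocyte-like cells, and 322 immature neutrophil-like cells against 754. Why the values moved was not tested. The passes of *Lrg1* and *Hp* in monocyte-like cells are not independent of the choice of members on neutrophil-like cells, so nothing is read from them.

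With either HC library left out, log2 differences ranged from 1.39 to 1.71 for *Lrg1*, 0.90 to 1.09 for *Hp* and 0.019 to 0.33 for *Orm1* in neutrophil-like cells, and from 1.16 to 1.96, 0.65 to 0.94 and 0.27 to 0.29 in monocyte-like cells. *Saa3* differences stayed at 0.763 and 49.3 CPM.

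The mean *Orm1* level in neutrophil-like cells ranged from 31.7 CPM, without the correction between libraries, to 66.4. The *Lrg1* interaction with stage was 0.85 with DESeq2, 0.82 with thinning and 0.50 with no correction. Counts of genes called followed the settings. The neutrophil-like count was 2, and 6 at Leiden resolution 2 and with DESeq2 size factors, 72 with at least 1000 UMIs, 49 with no correction, 23 with no removal of doublets, 10 with thinning, 75 with no filter and 11 with DESeq2. The monocyte-like count was 3, and 24 at Leiden resolution 2, 11 with at least 1000 UMIs and with no correction, 28 with subtraction and with no removal of doublets, 7 with DESeq2 size factors and 47 with no filter. The stage count was 21, and 4 with no correction, 13 with no removal of doublets and with no filter, 5 with thinning and 0 with DESeq2, where 11 had an unadjusted p under 0.05. The count of list genes in neutrophil-like cells was 0, and 1 at Leiden resolution 2 and with DESeq2 size factors, 2 with at least 1000 UMIs, no removal of doublets, thinning and DESeq2, and 3 with no correction and with no filter. These lists hold members chosen on this contrast, so the calls of *Lrg1* and *Hp* among them support nothing. The calls that were not members were *Chil3* with no correction and *Fkbp5* with no filter, named after their values were seen.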
